A study of Mus musculus with 18 samples.

Results

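Tex19.1, Dazl, Ddx4, Sycp3, Mael, Asz1, Stag3 and Slc25a31 are genes of the germline that body cells keep silent, and ChIP-seq signal at these 8 of 21631 protein-coding genes was examined in cardiomyocytes in which the G9a gene was targeted. They were chosen by name, as known targets of silencing by G9a, and their data were all regions that overlap a gene span or the 5 kb on either side of it in the deposited lists. That gave 331 of 2377384 listed regions, of which 83 were G9a, 86 H3K9me2, 93 H3K27me3 and 69 Mef2c regions.

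The study profiled chromatin of cardiomyocyte-enriched populations from mouse hearts by ChIP-seq with antibodies to 4 targets. KO mice were G9a flox/flox; alphaMHC-MerCreMer +/-, and Cre mice were alphaMHC-MerCreMer +/-, so that the controls carried the transgene too. All were C57BL/6J. Each target had 2 libraries of each genotype, called biological replicates, and each genotype had 1 input library. MerCreMer is a Cre recombinase that works on exposure to tamoxifen, and the promoter of Myh6, the alpha myosin heavy chain gene, limits it to cardiomyocytes. Other cells in an enriched population therefore keep G9a. Not given in the sources used here were age, tamoxifen schedule and any pooling of animals.

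G9a, encoded by Ehmt2, is a histone methyltransferase, and H3K9me2 is the mark it leaves on histone H3. H3K27me3 is the mark of Polycomb repressive complex 2, and Mef2c is a transcription factor of muscle. In mouse embryonic stem cells, many germline promoters are bound by a Polycomb complex that contains Mga, Max and E2f6, and from human cells such a complex has been purified together with G9a. Mga with Max recognises CACGTG and E2f6 recognises sites like GCGGGA. In body cells these CpG-rich promoters are usually also DNA-methylated.

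Promoters of 4 of these genes are shown because listed regions of at least 3 of the 4 targets lie over them. Each line is the 250 bases before the annotated start, 5′ to 3′ on the gene's strand, from RefSeq on GRCm38.p6. Mael is at chr1:166238745-166238994 (minus strand), Slc25a31 at chr3:40708621-40708870 (plus), Ddx4 at chr13:112652311-112652560 (minus) and Asz1 at chr6:18109062-18109311 (minus). Capitals mark CACGTG and GCGGGA on either strand (TCCCGC on the reverse strand).
Mael: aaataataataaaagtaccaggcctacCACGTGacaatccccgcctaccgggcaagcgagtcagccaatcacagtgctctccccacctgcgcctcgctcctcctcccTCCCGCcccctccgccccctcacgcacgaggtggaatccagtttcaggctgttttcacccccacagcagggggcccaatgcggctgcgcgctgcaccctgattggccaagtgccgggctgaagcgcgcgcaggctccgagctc
Slc25a31: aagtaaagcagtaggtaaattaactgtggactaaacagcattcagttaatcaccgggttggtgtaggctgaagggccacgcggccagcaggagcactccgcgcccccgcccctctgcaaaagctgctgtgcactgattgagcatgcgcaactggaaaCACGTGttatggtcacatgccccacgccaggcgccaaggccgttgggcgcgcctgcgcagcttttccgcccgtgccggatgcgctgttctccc
Ddx4: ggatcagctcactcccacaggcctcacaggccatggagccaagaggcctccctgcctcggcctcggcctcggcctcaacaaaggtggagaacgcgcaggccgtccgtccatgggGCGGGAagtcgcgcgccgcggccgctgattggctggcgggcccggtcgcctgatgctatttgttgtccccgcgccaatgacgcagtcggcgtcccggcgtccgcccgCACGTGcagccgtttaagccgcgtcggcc
Asz1: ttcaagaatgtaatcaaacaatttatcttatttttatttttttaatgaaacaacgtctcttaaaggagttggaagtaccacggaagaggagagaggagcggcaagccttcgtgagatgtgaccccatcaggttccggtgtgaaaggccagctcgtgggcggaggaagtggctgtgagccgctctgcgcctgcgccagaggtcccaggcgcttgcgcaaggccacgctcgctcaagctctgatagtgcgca

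Promoters of all 8 genes were found in the RefSeq table, which runs from 250 bases before to 50 bases after a start. CACGTG, searched on both strands, was in 5 of them and in 7.91% of all 21045 promoters. It began 223 bases before the start of Mael, 93 before Slc25a31, 29 before Ddx4 and 170 before Stag3, and Sycp3 had 2 copies, at 64 and 43 bases. GCGGGA was in 6 of the 8 and in 26.0% of all promoters, and TATAAA was in Tex19.1 alone of the 8 and in 12.7% of all. Asz1 and Dazl had none of these 3 motifs. CG dinucleotides numbered 15 to 38 per promoter with a median of 23, against a median of 13 over all promoters, and CACGTG itself holds a CG. None of the 3 motif strings overlap each other here.

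The lists hold 4 signal values per region, 2 of each genotype, on a scale not given in the sources used here; the depth behind them is unknown. They are differential lists: a region appears because the authors' own comparison gave it a -log10 p of 2 or more, and sequence outside them has no value. Median values over the whole G9a list were 86 and 75 in KO against 104 and 97 in Cre. They were 95 and 102 against 86 and 75 for H3K9me2, and 105 and 114 against 134 and 132 for H3K27me3. For Mef2c they were 69 and 76 against 93 and 89. In every list the genotypes were thus apart, with KO higher for H3K9me2 and lower for the other targets. Values and sums of regions are given as listed, without scaling for this. Listed regions exist over Ehmt2 itself (gene ID 110147, chromosome 17). The strongest G9a region there (34907251 to 34908750) had 67 and 106 in KO against 410 and 353 in Cre in the authors' deposited list, and a neighbour (34905901 to 34906800) had 175 and 246 in KO against 123 and 174 in Cre. Where the floxed part lies was not given in the sources used here, which limits this as a check of the labels. ChIP signal of listed regions is not expression, and cell type markers could not be used to check the enrichment of cardiomyocytes. In such bulk samples, fewer cells with a mark and less of it per cell cannot be told apart.

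The first question was whether H3K9me2 fell at germline genes when G9a was deleted. More listed regions were higher than lower: of 86 H3K9me2 regions, 48 were higher in KO and 38 lower. Over the whole H3K9me2 list 60.3% were higher and 39.7% lower, so the germline share of 44.2% lower was near the background. G9a itself was lower in KO at 54 of its 83 regions and higher at 29, that is 65.1% lower against 61.5% over its whole list (38.5% higher). H3K27me3 was lower at 54 of 93 and higher at 39, or 58.1% lower against 63.3% in all (36.7% higher). Mef2c was lower at 44 of 69 and higher at 25, or 63.8% lower against 61.7% in all (38.3% higher). The median log2 difference of the germline regions was 0.84 for H3K9me2 against 0.78 over its whole list, -1.07 against -0.83 for G9a, -0.61 against -0.65 for H3K27me3, and -0.95 against -0.81 for Mef2c.

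**Figure D1:**
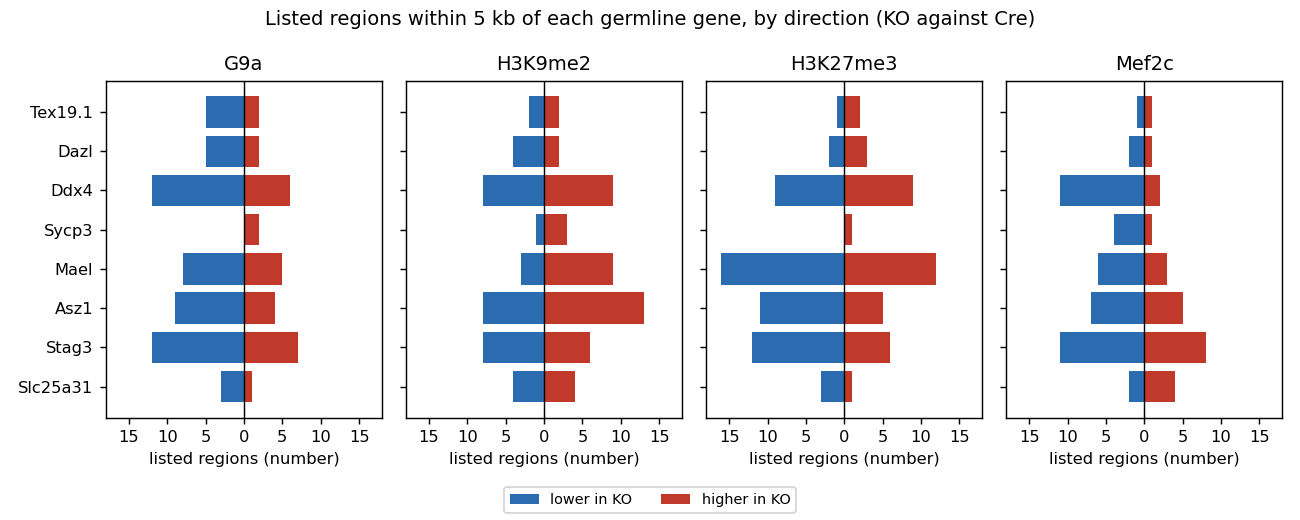
Number of listed regions per germline gene (rows) and target (panels), with regions lower in KO to the left of 0 and regions higher in KO to the right. Nearly all genes have both directions, and Mael and Asz1 have more higher than lower H3K9me2 regions, 9 against 3 and 13 against 8.

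The plot of region counts shows that direction varied within single genes. Ddx4, an RNA helicase of germ granules, had 12 lower and 6 higher G9a regions, but 8 lower and 9 higher H3K9me2 regions. Mael, a protein of the piRNA pathway, had 3 lower and 9 higher H3K9me2 regions, and Asz1, which anchors that pathway at mitochondria, had 8 lower and 13 higher. Dazl, an RNA-binding regulator of translation in germ cells, had more lower ones, 4 against 2 higher. Sycp3, a lateral element protein of the synaptonemal complex, had no lower G9a region and 2 higher ones. For Mef2c, Ddx4 had 11 lower and 2 higher regions.

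To set these differences against the spread between libraries, limma was fitted to log2(value + 1) over each whole list, with Benjamini-Hochberg adjustment. None of the 331 regions passed an adjusted p of 0.05, against 0% of all regions for G9a, H3K9me2 and Mef2c and 0.00119% (6 regions) for H3K27me3. The lowest limma adjusted p among the germline regions was 0.322 for H3K27me3, 0.399 for Mef2c, 0.400 for H3K9me2 and 0.454 for G9a. These p-values are too small, because regions were listed for their difference, and an exact two-sided permutation test of 2 values against 2 cannot go below 0.3333. Nothing in the labels ties the libraries to separate animals beyond the word biological, so the spread may be partly technical. The libraries of a genotype also differed: over the whole G9a list the first KO value was 0 in 6938 regions and the second in 22478. In Cre the first was 0 in 2330 regions and the second in 1892.

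At an unadjusted limma p under 0.05 there were 5 G9a regions (4 lower and 1 higher), 10 H3K9me2 regions (1 lower and 9 higher), 17 H3K27me3 regions (12 lower and 5 higher) and 7 Mef2c regions (3 lower and 4 higher). The whole lists had 6.5% at that level for G9a (5.12% lower, 1.38% higher), 11.1% for H3K9me2 (2.89% and 8.19%), 15.3% for H3K27me3 (12.3% and 3%) and 11.3% for Mef2c (8.62% and 2.66%). The direction among them depended on scaling: with libraries scaled to the same median, which moved the median of all regions by 0.32, -0.29, 0.28 and 0.32 on the log2 scale in the same order, the splits were 2 lower and 5 higher for G9a, 6 and 6 for H3K9me2, 6 and 10 for H3K27me3, and 2 and 9 for Mef2c. The whole lists split after scaling into 2.42% lower and 4.16% higher for G9a, 7.02% and 4.06% for H3K9me2, 4.89% and 7.93% for H3K27me3, and 3.86% and 6.91% for Mef2c. Without the first KO value 8 G9a regions passed the adjusted threshold, all lower in KO (3 at Stag3, 2 at Asz1 and 1 each at Ddx4, Mael and Tex19.1), as did 10.4% of the whole G9a list. The unadjusted count among the germline regions also moved when a value was left out. With the first KO, second KO, first Cre and second Cre value left out in turn it was 29, 18, 1 and 3 for G9a, where the whole list had 31.1%, 15.2%, 2.39% and 2.11%. In the same order it was 5, 4, 25 and 18 for H3K9me2, against 4.22%, 4.29%, 25.4% and 20.7% of the whole list. For H3K27me3 it was 19, 22, 8 and 9, against 19.16%, 20.2%, 7.98% and 6.68%. For Mef2c it was 15, 17, 2 and 7, against 18.8%, 21.5%, 4.92% and 5.63%. Of the 49 log2 differences examined, those of every promoter region and of the region with the highest -log10 p per gene and target, 31 moved by over 1.5 times when some single value was left out.

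In 34 G9a regions both KO values lay below both Cre values and in 18 above, against 39.2% and 22.4% of the whole list. For H3K9me2 these counts were 21 and 35, against 24.9% and 40.9% of all. For H3K27me3 they were 34 and 25, against 44.5% and 22.6% of all. For Mef2c they were 25 and 17, against 42.7% and 23.3% of all. The values of the genotypes thus overlapped in 31 of 83, 30 of 86, 34 of 93 and 27 of 69 regions.

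Promoters were examined next, since silencing of germline genes is centred there. G9a regions over the promoter were lower in KO at 5 genes (Tex19.1, Dazl, Ddx4, Asz1 and Slc25a31) and higher at 2 (Mael and Stag3), against 15.6% of all promoters with only lower and 8.18% with only higher regions. H3K9me2 was higher in KO at the promoters of Ddx4, Mael and Asz1 and lower at that of Slc25a31, against 12.3% and 7.47% of all promoters, and was unlisted at the other 4. H3K27me3 was higher at 3 promoters (Ddx4, Mael and Stag3) and lower at 0, against 12.1% and 15.2% of all. Mef2c was lower at Tex19.1 and Slc25a31 and higher at Mael and Asz1, against 14.7% and 7.98% of all. The Sycp3 promoter had no listed region of any target. Of the 19 promoter regions, 8 had KO and Cre values that did not overlap. Among all listed regions this share was larger, from 61.5% in the G9a list to 67.1% in the H3K27me3 list. The limma adjusted p of the 19 lay between 0.343 and 0.587.

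**Figure D2:**
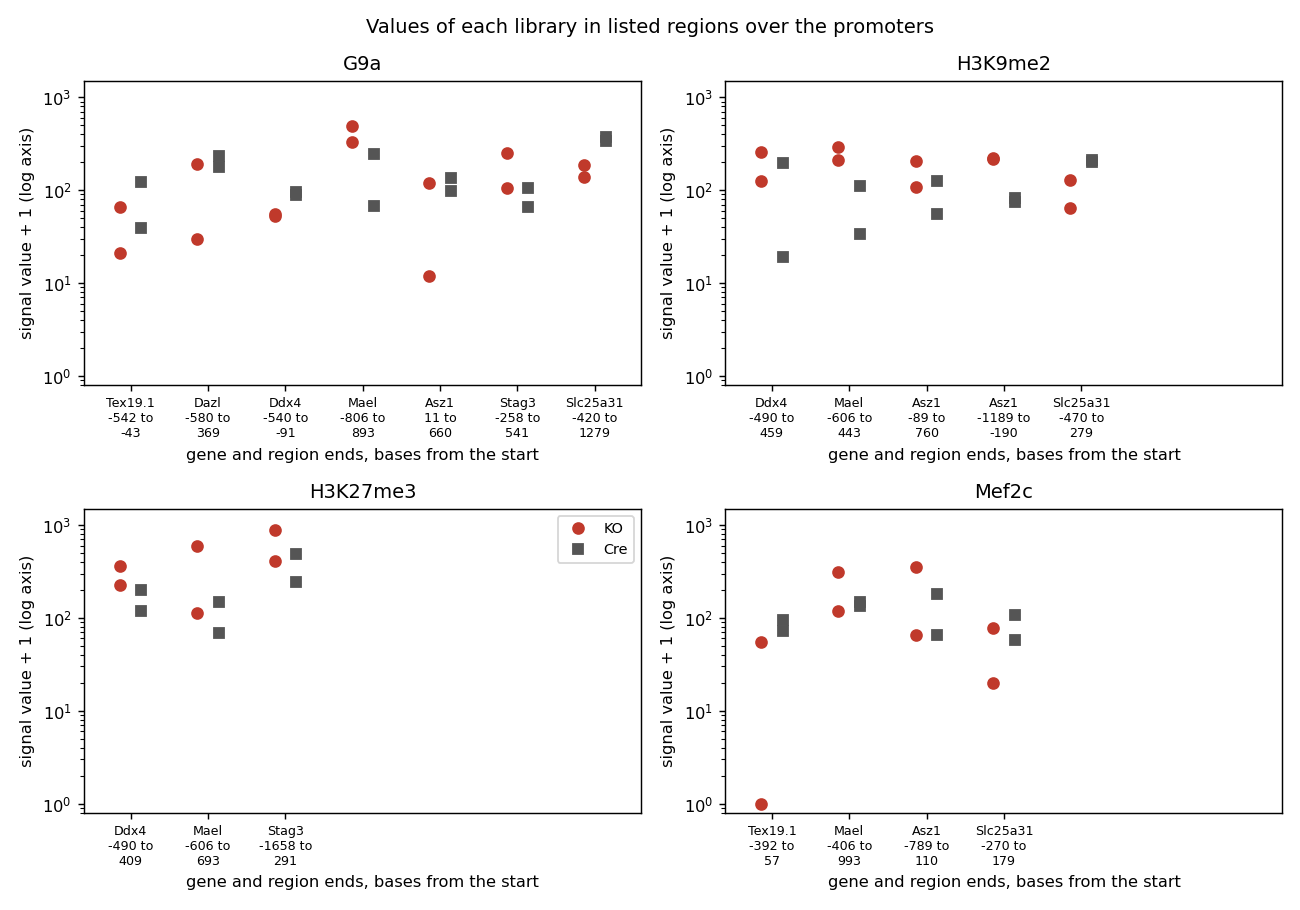
Deposited signal value plus 1 (log axis) of each library in every listed region over a germline promoter, KO as circles and Cre as squares, with the region's ends in bases from the start. Each panel is a target. At Mael both KO values lie above both Cre values for G9a and H3K9me2, and at Slc25a31 both lie below for the same targets; the Tex19.1 Mef2c point at 1 is a KO value listed at 0.

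Mael, which germ cells need to silence transposons through piRNAs, was the gene with regions of all 4 targets over its promoter (gene ID 98558, chr1:166201385-166238744, minus strand). Signal of all 4 was higher in KO there. H3K9me2 (166238301 to 166239350, from -606 to 443 bases relative to the start) had 290 and 211 in KO against 111 and 33 in Cre in the authors' deposited list, a log2 difference of 2.01 ± 0.71 (SE) by limma. G9a (-806 to 893) had 486 and 330 in KO against 67 and 244 in Cre there, a difference of 1.64 ± 0.71. In both cases both KO values lay above both Cre values. Without the first Cre value the G9a difference was 0.71, and without the second it was 2.56. H3K27me3 (-606 to 693) had 111 and 600 in KO against 67 and 149 in Cre in the authors' deposited list, with the second KO library far above the other 3 values. Mef2c (-406 to 993) had 311 and 119 in KO against 135 and 147 in Cre in the authors' deposited list; the KO values lay on either side of the Cre values, and the log2 difference of 0.45 ± 0.59 became -0.24 without the first KO value. All 4 lists overlapped over 850 bases (-406 to 443), which cover the printed Mael promoter with its CACGTG.

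Elsewhere at Mael, H3K9me2 was higher at the other end of the gene too. The region from 36294 to 37243 bases downstream of the start had 227 and 174 in KO against 83 and 21 in Cre in the authors' deposited list, 2.22 ± 0.79 on the log2 scale. G9a past the end of the gene (42094 to 43193) had 405 and 289 in KO against 77 and 132 in Cre in the authors' deposited list (1.75 ± 0.58). Both genotypes were apart in each case, with KO higher. H3K27me3 went both ways, with 16 lower and 12 higher regions: upstream (-6406 to -3957) the authors' deposited list had 349 and 141 in KO against 642 and 522 in Cre, and inside the gene (14094 to 15243) it had 394 and 279 in KO against 135 and 96 in Cre. The Mef2c region with the highest -log10 p (14594 to 15543) had 140 and 92 in KO against 123 and 319 in Cre in the authors' deposited list, so that it overlapped.

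Asz1 carries ankyrin repeats and holds piRNA factors in the cement between the mitochondria of germ cells (gene ID 74068, chr6:18050964-18109061, minus strand). H3K9me2 was higher in KO in the 2 regions over its promoter. Upstream (-1189 to -190) it had 224 and 215 in KO against 74 and 81 in Cre in the authors' deposited list, a log2 difference of 1.49 ± 0.55, and the 2 values of each genotype were close together. Across the start (-89 to 760) it had 108 and 203 in KO against 54 and 126 in Cre in the authors' deposited list, and there the genotypes overlapped. The adjoining H3K9me2 region downstream (761 to 1110) was lower in KO, with 33 and 33 against 76 and 47 in Cre in the authors' deposited list, and was apart. G9a just inside the gene (11 to 660) had 11 and 118 in KO against 97 and 133 in Cre in the authors' deposited list. The first KO value alone was low, and without it the log2 difference of -1.60 ± 1.17 became 0.05. Mef2c over the start (-789 to 110) had 355 and 65 in KO against 179 and 65 in Cre in the authors' deposited list. Its difference of 0.49 ± 0.83 became -0.23 without the second Cre value and -0.72 when the first KO value was left out.

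The strongest Asz1 regions lay inside or past the gene and all had separate genotypes. H3K9me2 (13811 to 15560 bases downstream of the start) had 281 and 430 in KO against 141 and 115 in Cre in the authors' deposited list, a log2 difference of 1.44 ± 0.48. H3K27me3 (9061 to 10660) had 123 and 107 in KO against 391 and 317 in Cre in the authors' deposited list (-1.61 ± 0.48). Mef2c (44611 to 46010) had 134 and 96 in KO against 464 and 261 in Cre there (-1.61 ± 0.51). H3K9me2 was thus the target that was higher in KO. G9a past the gene end (60961 to 61660) had 36 and 1 in KO against 181 and 138 in Cre in the authors' deposited list (-4.21 ± 1.64). Without the first KO value the difference was -6.31, which rests on the single KO value of 1.

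Tex19.1, a mammalian protein that restrains retrotransposons in germ cells and is needed for meiosis, is a short gene (gene ID 73679, chr11:121146143-121148314, plus strand). Its strongest difference was in H3K27me3, and this had the highest -log10 p of all 331 regions, 59.6 in the authors' deposited list. That region covers most of the gene (458 to 2007 bases from the start) and had 104 and 78 in KO against 449 and 495 in Cre in the authors' deposited list, a log2 difference of -2.37 ± 0.47 and an unadjusted limma p of 0.000280 (adjusted 0.322, Benjamini-Hochberg). Upstream (-2692 to -1293) the direction was the opposite, with 310 and 478 in KO against 81 and 151 in Cre in the authors' deposited list (1.79 ± 0.51). The 4 values did not overlap in either region. Neither region reached the promoter.

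At the Tex19.1 promoter G9a (-542 to -43) had 65 and 20 in KO against 121 and 38 in Cre in the authors' deposited list, which overlapped. Mef2c (-392 to 57) had 54 and 0 in KO against 72 and 93 in Cre in the authors' deposited list, with the second KO library listed at 0. H3K9me2 had no listed region there and was split over the window, with 2 lower and 2 higher regions. The strongest lay past the gene (6308 to 7107) with 15 and 63 in KO against 172 and 173 in Cre in the authors' deposited list, -2.44 ± 0.85 on the log2 scale. The strongest G9a region (-4292 to -2993) had 133 and 75 in KO against 329 and 191 in Cre there, while the strongest Mef2c region (5108 to 5957) had 111 and 259 in KO against 21 and 114 in Cre in the authors' deposited list and overlapped.

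**Figure D3:**
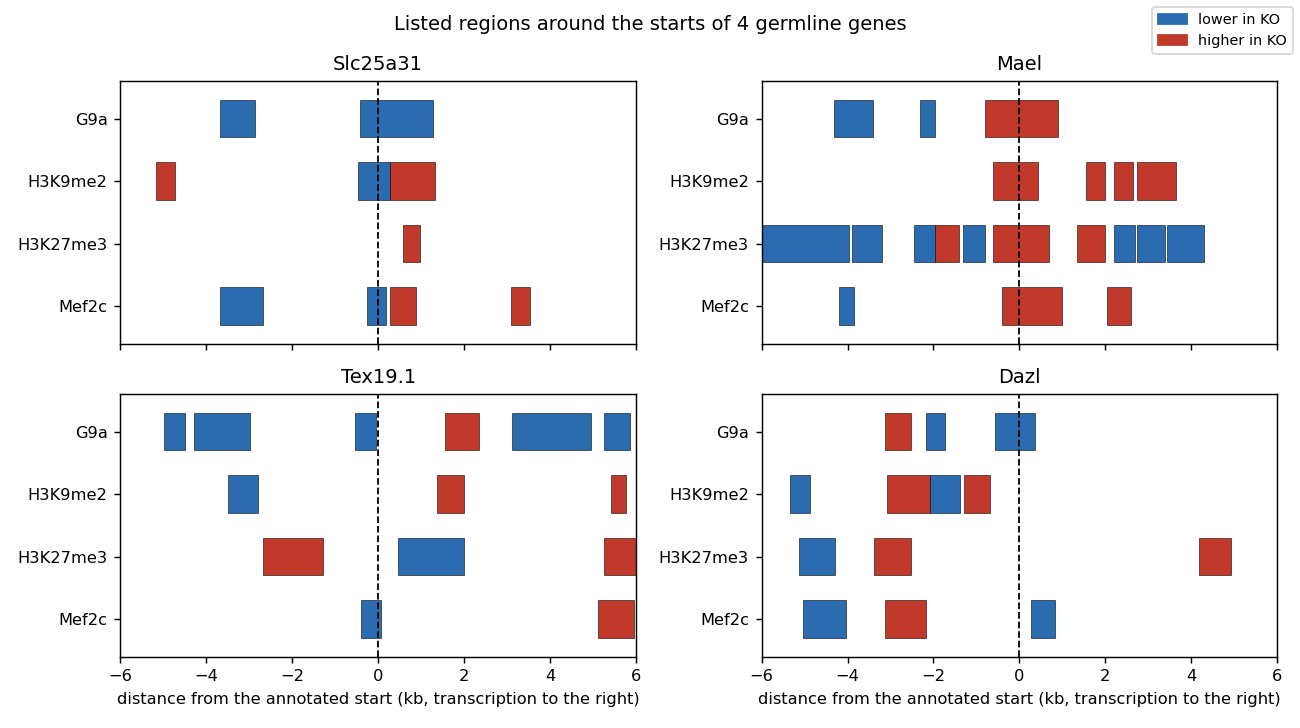
Listed regions of the 4 targets within 6 kb of the annotated starts of Slc25a31, Mael, Tex19.1 and Dazl, in kb from the start with transcription to the right, coloured by direction in KO. Over the start of Mael all 4 targets are higher in KO and over that of Slc25a31 3 are lower, while Dazl has all 4 higher from -3080 to -2531 bases.

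Slc25a31, an ADP/ATP carrier of the mitochondria of male germ cells (gene ID 73333, chr3:40708871-40726094, plus strand), was the gene with a lower H3K9me2 region over its promoter. That region (-470 to 279) had 64 and 127 in KO against 201 and 208 in Cre in the authors' deposited list, a log2 difference of -1.17 ± 0.59. G9a (-420 to 1279) had 188 and 137 in KO against 375 and 337 in Cre there, a difference of -1.14 ± 0.52. In both, both KO values were below both Cre values. Mef2c (-270 to 179) had 77 and 19 in KO against 57 and 107 in Cre in the authors' deposited list and overlapped. The map of regions around the starts shows that the next H3K9me2 region downstream (280 to 1329) had the other direction, with 193 and 200 in KO against 86 and 123 in Cre in the authors' deposited list. The H3K9me2 difference thus had opposite signs in 2 adjoining regions at the start of the gene.

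Past the end of Slc25a31, whose window also holds part of Intu, H3K27me3 (19780 to 20479) had 61 and 1 in KO against 159 and 152 in Cre in the authors' deposited list. Mef2c at the same place (19730 to 20629) had 248 and 217 in KO against 116 and 90 in Cre in the authors' deposited list, 1.18 ± 0.52 on the log2 scale. The genotypes lay apart in both regions, in opposite directions. The regions with the highest -log10 p were otherwise thin in Cre: H3K9me2 (-5170 to -4721) had 60 and 113 in KO against 37 and 0 in Cre, and Mef2c (3080 to 3529) had 40 and 155 in KO against 0 and 27 in Cre, in the authors' deposited lists.

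Ddx4 is the mouse vasa homologue, a helicase of germ granules (gene ID 13206, chr13:112598333-112652633, minus strand; Slc38a9 and Gm3226 lie in its window). Its promoter carries CACGTG close to the start and had regions of 3 targets. G9a (-540 to -91) had 52 and 54 in KO against 95 and 88 in Cre in the authors' deposited list, -0.78 ± 0.77 on the log2 scale. H3K27me3 (-490 to 409) had 226 and 359 in KO against 198 and 118 in Cre there, 0.89 ± 0.51. These 2 did not overlap between genotypes. H3K9me2 (-490 to 459) had 258 and 124 in KO against 193 and 18 in Cre in the authors' deposited list; the second Cre value alone was low, and without it the difference of 1.57 ± 1.03 became -0.11.

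The strongest Ddx4 differences lay in the gene body and at its far end. H3K9me2 near the gene end (51310 to 52509) had 291 and 317 in KO against 42 and 112 in Cre in the authors' deposited list, a log2 difference of 2.13 ± 0.62. G9a just past the end (54110 to 54859) had 66 and 38 in KO against 188 and 197 in Cre in the authors' deposited list (-1.92 ± 0.67). H3K27me3 (24160 to 24959) had 64 and 46 in KO against 220 and 200 in Cre in the authors' deposited list (-1.93 ± 0.61). Mef2c (34160 to 35259) was at 80 and 115 in KO against 259 and 196 in Cre in the authors' deposited list. The genotypes were apart in all 4, with H3K9me2 higher in KO and the other targets lower.

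Dazl lies on the same chromosome as the targeted gene, 15.4 Mb from Ehmt2 (gene ID 13164, chr17:50279393-50293620, minus strand). Its promoter held a G9a region alone (-580 to 369), with 189 and 29 in KO against 230 and 177 in Cre in the authors' deposited list, and these overlapped. Upstream, from -3080 to -2531 bases, all 4 targets were higher in KO. The G9a region of that stretch had 83 and 156 in KO against 55 and 50 in Cre, and the H3K9me2 region (-3080 to -2081) had 205 and 200 in KO against 159 and 69 in Cre, in the authors' deposited lists. Both were apart. Just past the gene's end H3K9me2 (14270 to 15069) had 95 and 0 in KO against 145 and 226 in Cre in the authors' deposited list, with the second KO library listed at 0. G9a (11870 to 12369) had 42 and 17 in KO against 82 and 100 in Cre, and Mef2c just inside the gene (270 to 819) had 27 and 49 in KO against 83 and 136 in Cre, in the authors' deposited lists. H3K27me3 (4170 to 4919) had 84 and 196 in KO against 55 and 71 in Cre in the authors' deposited list. These 3 were apart too, with H3K27me3 higher in KO. The H3K9me2 region farthest from the gene inside the window was set beside the nearest one outside, whichever side of the gene each lay on. The directions were the same at Dazl, Stag3 and Slc25a31 and opposite at Tex19.1, Mael and Asz1. At Ddx4 and Sycp3 every H3K9me2 region inside the window overlapped the gene, so no farthest one could be named. At Dazl the one inside, 4.88 kb from the gene, had 39 and 9 in KO against 91 and 74 in Cre in the authors' deposited list, and the one outside, at 5.14 kb, had 183 and 80 in KO against 316 and 361 in Cre.

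Sycp3 and Stag3 build the axis of meiotic chromosomes, Sycp3 as a lateral element and Stag3 as a cohesin subunit made in meiosis. Sycp3 (gene ID 20962, chr10:88459587-88473236, plus strand; Chpt1 lies in its window) had 12 regions in all. H3K9me2 in the gene (1714 to 2863) had 275 and 263 in KO against 150 and 22 in Cre in the authors' deposited list, a log2 difference of 2.20 ± 0.86. The second Cre value alone was low, and the difference was 0.84 without it and 3.55 without the first Cre value. Mef2c just after the start (64 to 963) had 35 and 76 in KO against 172 and 212 in Cre in the authors' deposited list (-1.87 ± 0.67). Both were apart, in opposite directions. The single H3K27me3 region (364 to 713) had 55 and 76 in KO against 30 and 6 in Cre, and the strongest G9a region (5114 to 5513) had 22 and 143 in KO against 9 and 23 in Cre, in the authors' deposited lists, the last overlapping.

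Stag3 (gene ID 50878, chr5:138272514-138312397, plus strand) shares its window with Gal3st4 and Gpc2. The RefSeq start used, at 138280509, lies inside this span, so the Mef2c region given below at -7758 to -7359 overlaps the gene. No promoter at the upstream edge of the span was examined. At the promoter G9a (-258 to 541) had 248 and 104 in KO against 65 and 104 in Cre in the authors' deposited list, with an equal value in each genotype. H3K27me3 (-1658 to 291) had 877 and 414 in KO against 485 and 245 in Cre there and overlapped. Further upstream (-12258 to -9809) H3K27me3 had 335 and 222 in KO against 729 and 552 in Cre in the authors' deposited list, -1.21 ± 0.38 on the log2 scale, the opposite direction. H3K9me2 was higher in KO in the gene (25042 to 25591), with 115 and 106 in KO against 34 and 17 in Cre in the authors' deposited list. G9a (18292 to 19591) had 163 and 85 in KO against 273 and 287 in Cre, and Mef2c (-7758 to -7359) had 3 and 6 in KO against 109 and 60 in Cre, in the authors' deposited lists. These 4 regions were apart, and H3K9me2 alone of them was higher in KO.

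Listed values were then summed over each gene's window, to ask whether opposite directions cancelled. Summed H3K9me2 was higher in both KO libraries at Sycp3 (609 and 503 in KO against 259 and 250 in Cre), Mael (1632 and 1468 in KO against 922 and 966 in Cre) and Asz1 (2642 and 2813 in KO against 2125 and 1784 in Cre). It was lower in both at Dazl, with 456 and 491 in KO against 680 and 593 in Cre, and overlapped at the other 4. Over all genes with a listed region, 40.5% had both KO sums above both Cre sums and 13.1% below. The log2 ratio of summed H3K9me2 was 1.12 at Sycp3, 0.71 at Mael, 0.48 at Asz1 and -0.43 at Dazl, against a median of 0.22 over all genes.

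**Figure D4:**
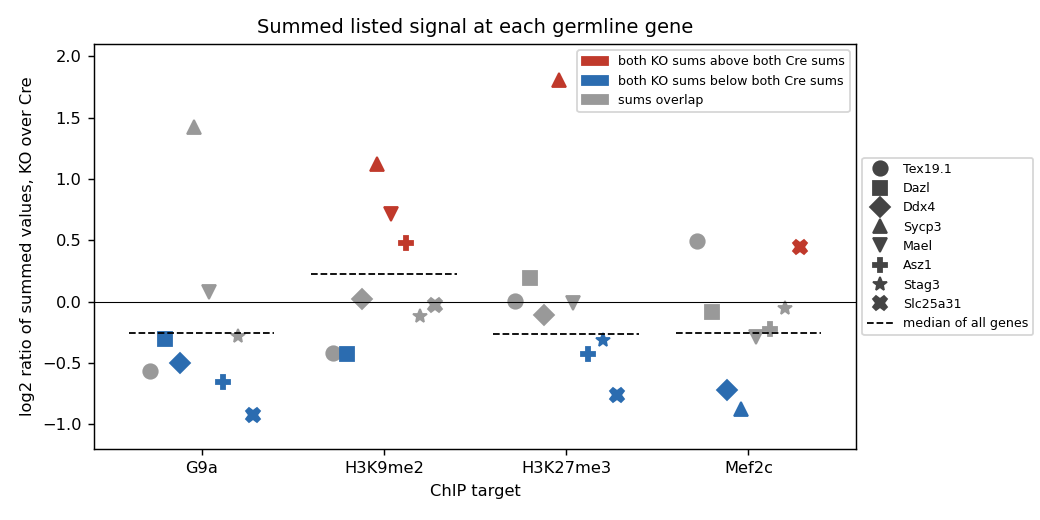
Log2 ratio (KO over Cre) of the summed listed values within 5 kb of each germline gene, by target, coloured by whether both KO sums lie above or below both Cre sums. Dashed lines are the median over all genes with a listed region; H3K9me2 ratios run from -0.43 (Dazl) to 1.12 (Sycp3).

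Summed G9a was lower in both KO libraries at Dazl, Ddx4, Asz1 and Slc25a31 and higher in both at none, against 38.9% and 11.6% of all genes. Its lowest ratio, -0.93 at Slc25a31, came from sums of 427 and 244 in KO against 581 and 695 in Cre. Summed H3K27me3 was lower in both KO libraries at Asz1, Stag3 and Slc25a31, against 50.4% of all genes. It was higher in both at Sycp3, where it rests on 1 region, against 14.5% of all. Summed Mef2c was lower in both at Ddx4 (604 and 1226 in KO against 1664 and 1346 in Cre) and Sycp3, and higher in both at Slc25a31 (759 and 721 in KO against 502 and 584 in Cre), against 45.3% and 12.1% of all. Listed regions covered between 1.48% (H3K27me3 at Sycp3) and 52.6% (G9a at Tex19.1) of a window, and a sum moves with how much was listed. The plot of summed values shows the medians over all genes, 0.22 for H3K9me2, -0.25 for G9a and -0.26 for both H3K27me3 and Mef2c.

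Whether loss of G9a signal and loss of H3K9me2 met at the same stretch was also asked. Of the 54 lower G9a regions at germline genes, 13 (24.1%) overlapped a lower H3K9me2 region, as did 24.7% of all lower G9a regions. A higher H3K9me2 region was overlapped by 10 of the 54 (18.5%), against 30.3% of all. Of the 29 higher G9a regions, 12 (41.4%) overlapped a higher H3K9me2 region, against 34.3% of all, and 7 (24.1%) a lower one, against 15.4% of all. Germline stretches listed for 3 or more targets came to 18.15 kb, of which 29.5% were lower and 17.9% higher in every target listed, against 28.2% and 9.85% over the genome. Those higher in all 4 were the promoter of Mael and the stretch upstream of Dazl. KO and Cre values overlapped for H3K27me3 at both and for Mef2c at Mael.

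Further germline genes were taken from 3 lists and their known repressors from another, all chosen with results of these data known. Of 471 H3K9me2 regions at 28 genes of meiotic chromosomes, 38.0% were lower in KO, of 309 at 19 piRNA and germ granule genes 42.1%, of 245 at 30 germ cell regulators and testis antigens 36.3%, and of 226 at 22 repressors of germline genes 39.8%. All lie near the 39.7% of the whole list, and none of their regions passed the limma threshold after Benjamini-Hochberg adjustment for any target. G9a was lower at 59.5%, 62.7%, 60.6% and 53.7% of regions in the same order of lists, against 61.5% in all. H3K27me3 was lower at 60.0%, 57.4%, 56.1% and 64.6%, and Mef2c at 62.5%, 61.2%, 54.1% and 54.1%. H3K9me2 regions of both directions were found at 27 of the 28, 19 of the 19, 22 of the 30 and 21 of the 22 genes. Over all genes the share was 79.3%, and a window with more regions more easily holds both directions.

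The H3K9me2 regions of highest -log10 p in these lists were as follows. Among meiotic genes, Rad21l, a cohesin subunit, had 330 and 459 in KO against 95 and 120 in Cre in the authors' deposited list, and Rec114, a factor for meiotic DNA breaks, had 6 and 2 in KO against 168 and 119 in Cre. Among piRNA and germ granule genes, Tdrd12 had 230 and 164 in KO against 0 and 11 in Cre, and Tex14, which forms the bridges between germ cells, had 210 and 195 in KO against 568 and 459 in Cre, in the authors' deposited list. The rule takes a gene of each direction from every list. Hsf2bp, a meiotic partner of Brca2, had 91 and 107 in KO against 0 and 1 in Cre in the authors' deposited list, and Brdt, the testis bromodomain protein, had 184 and 111 in KO against 435 and 382 in Cre. Among the repressors, Mga had 130 and 101 in KO against 0 and 1 in Cre in the authors' deposited list, and Zfp42 had 254 and 192 in KO against 530 and 545 in Cre.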

How the data were processed

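The submitters' processing notes name BWA 0.7.10-r789, SAMtools 1.1 and the build mm10 (GRCm38). The authors deposited 1 differential list per target. Each region has a direction and a text cell with 4 signal values, in 2 pairs, and a number read as a -log10 p. No header names them: the pair of Cre and the pair of KO were inferred from the order of genotypes in the list names that the labels give, and every KO and Cre value rests on that. Region caller, normalization and use of inputs were not given in the sources used here, and the signal was therefore not analysed as counts. H3K27me2 stands once in the series text in place of the H3K27me3 of its title and labels.

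Gene spans were widened by 5 kb, and an overlap of 1 base counted. Over each whole list, limma 3.58.1 under R 4.3.3 compared 2 KO with 2 Cre values as log2(value + 1), with a mean-variance trend and Benjamini-Hochberg adjustment at 0.05, and was tested on simulated data. Adding 1 shrinks the ratio of low values, but a single value near 0 can make the log2 difference of a region large. For G9a past the end of Asz1, with 36 and 1 in KO, it was -4.21. With a pseudocount of 10 it was -2.90. Other steps used Python 3.11.15 with pandas 2.3.3. Positions are 1-based. For every gene the text gives the region of highest -log10 p per target and each promoter region. For the lists of further genes the rule names the gene with the highest -log10 p per target and direction, and the text gives those of H3K9me2. The genes, lists and tests were chosen with earlier results of these data known. Alternatives tried were other windows, a stricter -log10 p, another pseudocount, a filter on mean value, scaled libraries and leaving out each value.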

Additional observations from a re-analysis of the deposited data

How the results depend on the processing

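With regions limited to a -log10 p of at least 10 in the authors' deposited lists, the germline genes had 15 lower and 6 higher G9a regions, 7 lower and 16 higher H3K9me2 regions, 17 lower and 9 higher H3K27me3 regions, and 8 lower and 9 higher Mef2c regions. The share of lower regions among all at that level was 28.9% for H3K9me2, 72.8% for G9a, 73.6% for Mef2c and 77.2% for H3K27me3. The number of G9a regions with a limma adjusted p under 0.05 (Benjamini-Hochberg) lay between 0 and 8 when each value was left out in turn, with 8 reached without the first KO value. The lone value left is then assumed to vary like the others. Leaving out values, an alternative chosen for promoter regions after seeing the data, turned the log2 difference at 4 of them. It ranged from -3.26 to 0.054 for G9a at Asz1, -0.11 to 3.24 for H3K9me2 at Ddx4, -0.24 to 1.14 for Mef2c at Mael, and -0.72 to 1.71 for Mef2c at Asz1, where it was -0.23 without the second Cre value. The cause was not tested. Over the settings tried, 99 of 108 counts stayed within 1.5 times the reported count. These were counts of lower regions, of higher regions and of regions under the adjusted threshold. The counts at an unadjusted p, which moved with scaling and with each value left out, are not among them. Those under the adjusted threshold were 0 as reported and stayed 0 in most settings. In the counts of lower and of higher regions, regions that change direction can cancel. Of 294 region values, 288 kept their direction and their side of the threshold. No paired analysis was possible because the deposited values carry no replicate number. Depth is unknown, and 2 values a genotype limit every comparison.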
